A study of Mus musculus with 6 samples.

Results

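A set of early mouse embryo genes was followed in fully-grown germinal vesicle oocytes with a conditional knockout of Uba3 and in control oocytes. The genes are Dppa2, Dppa4, Zscan4c, Zscan4d, Zscan4f, Zfp352, Sp110 and B020004J07Rik, 8 of the 28738 gene IDs in the deposited table, and each was found by matching its Ensembl ID to its symbol. The genes were selected on log2 values of the same comparison, Uba3 cKO against control, so their differences between the groups are described here and carry no test. The samples were 3 Uba3 conditional knockout (Uba3 cKO) and 3 control RNA sequencing libraries. About 150 oocytes were pooled for each, at the germinal vesicle stage, that of the fully grown oocyte before meiosis resumes. Both groups came from mice of the strain given as C57/Bl6/N;129SvEv7. The sources used here do not give the Cre driver, the deleted part of Uba3, the age of the mice or the number of animals behind each pool. Spread and p-values therefore measure the differences between these pools.

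In the mouse, the major wave of transcription from the embryo's own genome starts at the 2-cell stage. A group of genes and repeats is read briefly at that time, and the same group is switched on in rare embryonic stem cells. Dppa2 and Dppa4 are a pair of SAP-domain chromatin proteins that are stored in the oocyte and help to start this programme. Dux, a double homeodomain factor, acts on many of its genes, and Zscan4 genes and Zfp352 are among its best known products. Uba3 forms, with Nae1, the E1 enzyme for NEDD8, a small protein related to ubiquitin that is attached to cullin ligases.

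Uba3 itself measured 10.03, 10.16 and 10.36 in Uba3 cKO libraries, against 11.37, 11.46 and 11.34 in control libraries. All values of this kind are the authors' normalized log2 values, and every difference is Uba3 cKO minus control on that scale. Uba3 was lower by a difference of -1.21 ± 0.10 (SE; limma, Benjamini-Hochberg adjusted p = 2.07e-05), so its RNA was reduced and still measured in every Uba3 cKO library. The markers of oocytes were all measured in both groups, and their summed level was 18.62 to 18.76 in Uba3 cKO libraries and 18.79 to 18.996 in control libraries, with 2 of 11 called lower. The summed level of the 8 theca, stroma and luteal markers was 10.03 to 10.15 in Uba3 cKO libraries and 10.36 to 11.13 in control libraries, and 4 of them were called lower. The summed level of the 10 measured granulosa and cumulus markers was 13.205 to 13.71 in Uba3 cKO libraries and 13.58 to 13.84 in control libraries, and of the 9 kept, 2 were called higher and 1 lower. Blood and immune markers summed to 8.995 to 9.13 in Uba3 cKO libraries and 9.12 to 9.39 in control libraries, with 2 of the 6 kept called lower. Endothelial markers summed to 11.86 to 12.05 in Uba3 cKO libraries and 11.83 to 11.96 in control libraries, with 1 of 5 called lower. Over all kept genes, 5.64% were called higher and 2.5% lower. The oocyte sums and the theca, stroma and luteal sums did not overlap between the groups. No value in the deposited table was under 0.0363, so a marker gene at 0 was not possible and detection of each marker cannot be read from that. The part of these cell types in the results was not tested. In pooled oocytes, less RNA per cell and fewer cells with the RNA cannot be told apart.

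Of the 8 genes, 6 passed the filter on low values, which asked 3 or more libraries for a linear value of at least 10, and Zscan4f and Zfp352 did not. Set beside the threshold applied to all genes, which is a description here and no test of the 8, Dppa4 and B020004J07Rik lay past it with higher levels in Uba3 cKO oocytes and Sp110 with a lower level. Dppa2, Zscan4c and Zscan4d did not. The threshold was a limma adjusted p under 0.05, which 8.14% of the 17450 kept genes passed, 5.64% higher and 2.5% lower in Uba3 cKO oocytes. Because the comparison chose the genes, nothing is read from their share against these percentages. The groups did not overlap for Dppa4, B020004J07Rik and Zscan4d with all Uba3 cKO libraries higher, which held for 15.1% of kept genes, and for Sp110 with all Uba3 cKO libraries lower, which held for 12.8%.

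**Figure D1:**
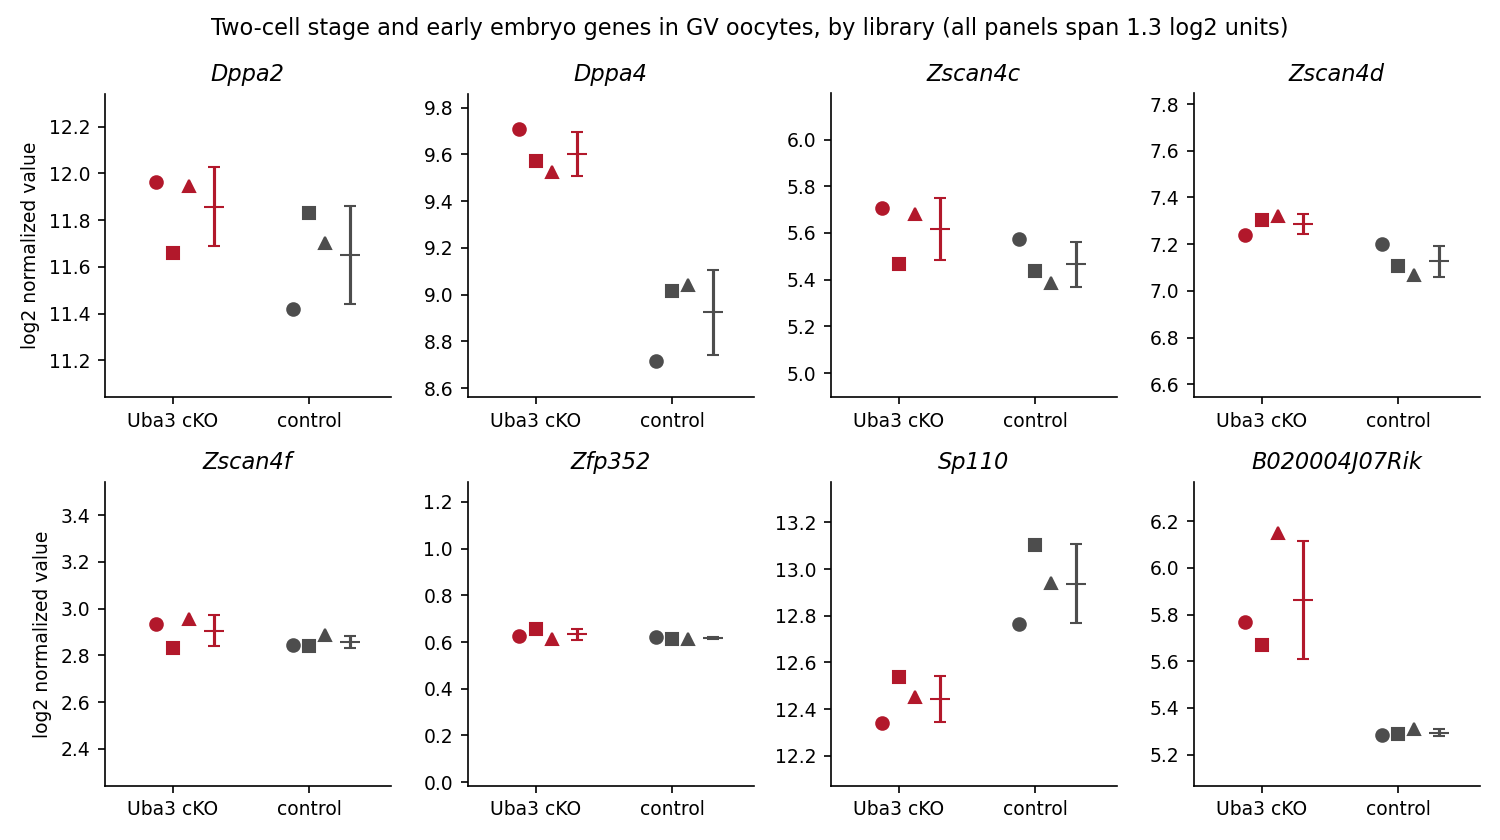
Deposited log2 value of each of the 8 genes in every library, with Uba3 cKO left of control and the group mean marked. The Dppa4 and B020004J07Rik points of the Uba3 cKO libraries lie above all control points, those of Sp110 lie below them, and Zfp352 stays between 0.61 and 0.66 in every library.

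Dppa4 (ENSMUSG00000058550, chromosome 16) measured 9.71, 9.57 and 9.53 in Uba3 cKO libraries, against 8.72, 9.02 and 9.04 in control libraries. Every Uba3 cKO library lay above every control library, and the lowest of the first stood 0.49 above the highest of the second. The means were 9.60 ± 0.09 in Uba3 cKO oocytes and 8.92 ± 0.18 in control oocytes (SD, n = 3 each), a difference of 0.68 ± 0.11 (SE), or 1.6-fold. Leaving out each library in turn gave differences of 0.575 to 0.737.

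Its partner Dppa2 (ENSMUSG00000072419, chromosome 16) measured 11.96, 11.66 and 11.95 in Uba3 cKO libraries, against 11.42, 11.83 and 11.70 in control libraries. The groups overlapped, since Uba3 cKO library 2 lay below control libraries 2 and 3. The means were 11.86 ± 0.17 in Uba3 cKO oocytes and 11.65 ± 0.21 in control oocytes (SD, n = 3 each), a difference of 0.205 ± 0.12 (SE). Leaving out each library in turn moved it between 0.090 and 0.303, lowest without control library 1.

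The Dppa2 value minus the Dppa4 value within a library was 2.26, 2.09 and 2.42 in Uba3 cKO libraries, against 2.71, 2.81 and 2.66 in control libraries. The log2 distance between the pair was thus smaller in every Uba3 cKO library than in any control library. Both genes were selected on this comparison, and the distance largely restates the Dppa4 difference given above, so nothing further is read from it. The pair are neighbours on chromosome 16, in the RefSeq order Nectin3, Dppa4, Dppa2, Morc1 among genes with a row in the table. Morc1, a Microrchidia family ATPase of germ cells, measured 11.52, 11.47 and 11.53 in Uba3 cKO libraries, against 10.96, 10.95 and 11.15 in control libraries, and it was called higher (difference 0.49 ± 0.09, SE; limma adjusted p = 0.00565). Nectin3, an adhesion molecule on the other side, measured 12.74, 12.66 and 12.78 in Uba3 cKO libraries, against 12.67, 12.73 and 12.72 in control libraries, and was not called. Morc1 and Nectin3 were named after their values were seen.

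The Zscan4 genes encode SCAN and zinc finger proteins that act at telomeres and mark the 2-cell state. Their promoter windows are shown because the copies are nearly alike and hold the same motifs. Each runs from 250 bases before to 50 bases after the gene's start in RefSeq, build GRCm38.p6, and capitals mark a match to the Dux motif (TGATT, any 2 bases, ATCA, here read on the other strand) and a CCAAT box, the site of NF-Y. Zscan4c lies at chr7:11005495-11005794 on the plus strand, Zscan4d at chr7:11166099-11166398 on the minus strand and Zscan4f at chr7:11397665-11397964 on the plus strand.
Zscan4c: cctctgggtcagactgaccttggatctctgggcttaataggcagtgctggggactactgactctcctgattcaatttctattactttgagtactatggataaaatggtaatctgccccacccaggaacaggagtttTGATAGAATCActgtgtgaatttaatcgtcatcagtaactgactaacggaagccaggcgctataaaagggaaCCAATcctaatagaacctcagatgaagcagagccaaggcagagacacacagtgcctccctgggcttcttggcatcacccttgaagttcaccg
Zscan4d: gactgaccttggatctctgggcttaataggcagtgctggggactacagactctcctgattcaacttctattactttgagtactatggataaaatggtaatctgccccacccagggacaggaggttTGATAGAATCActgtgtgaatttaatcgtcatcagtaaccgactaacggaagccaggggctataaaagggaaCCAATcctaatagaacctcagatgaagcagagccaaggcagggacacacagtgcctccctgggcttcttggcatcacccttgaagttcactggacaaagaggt
Zscan4f: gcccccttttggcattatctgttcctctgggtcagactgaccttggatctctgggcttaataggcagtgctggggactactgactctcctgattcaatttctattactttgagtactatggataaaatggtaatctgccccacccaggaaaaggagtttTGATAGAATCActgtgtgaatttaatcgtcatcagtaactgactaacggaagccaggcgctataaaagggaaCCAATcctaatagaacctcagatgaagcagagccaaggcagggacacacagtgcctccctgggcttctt

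Each Zscan4 window held 1 Dux motif match, with its first base at position -114 from the start in Zscan4c, -125 in Zscan4d and -91 in Zscan4f. The motif was in the windows of 63 of 27025 genes (0.233%), both strands searched. CCAAT was in 1 place in each Zscan4 window, and 37.9% of genes' windows held it. The best local alignments of the windows were 97.6% identical for Zscan4c and Zscan4d, 99.3% for Zscan4c and Zscan4f, and 97.4% for Zscan4d and Zscan4f. A match describes letters and was not tested as a binding site.

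Zscan4d (ENSMUSG00000090714, chromosome 7) measured 7.24, 7.30 and 7.32 in Uba3 cKO libraries, against 7.20, 7.11 and 7.07 in control libraries. The groups did not overlap, by a gap of 0.04, but the difference of 0.16 ± 0.09 (SE) was not past the threshold. Zscan4c (ENSMUSG00000054272, chromosome 7) measured 5.71, 5.47 and 5.68 in Uba3 cKO libraries, against 5.57, 5.44 and 5.39 in control libraries. Its groups overlapped, with Uba3 cKO library 2 among the control libraries, and the difference was 0.15 ± 0.08 (SE). Zscan4f (ENSMUSG00000070828, chromosome 7) measured 2.93, 2.83 and 2.95 in Uba3 cKO libraries, against 2.84, 2.84 and 2.89 in control libraries. Its groups overlapped, and it was not tested because its level was under the filter.

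Reads of the Zscan4 copies are hard to assign. The transcripts of Zscan4c and Zscan4d were 97.1% identical, and 85.5% of the 50-base windows of Zscan4c, 49.6% of those of Zscan4d and 95.3% of those of Zscan4f also occurred in transcripts of other genes. With 100-base windows the shares were 72.8% in Zscan4c, 29.6% in Zscan4d and 89.5% in Zscan4f. The sources used here do not say how the authors counted reads with several matches, so the levels of single Zscan4 genes are uncertain. Zscan4-ps1, a further locus of the family, measured 9.45, 9.17 and 9.65 in Uba3 cKO libraries, against 9.64, 9.49 and 9.41 in control libraries, and its groups overlapped too. None of the 14 kept genes of the wider Zscan list was called by limma, beside 8.14% of all kept genes. None of that list had an unadjusted p under 0.05. Its members with the highest level were Zscan21, at 10.42, 10.43 and 10.55 in Uba3 cKO libraries and 10.58, 10.54 and 10.61 in control libraries, and Zscan20, at 10.11, 10.10 and 10.14 in Uba3 cKO libraries and 10.15, 10.08 and 10.10 in control libraries.

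Zfp352, an intronless zinc finger gene read in the early embryo, is shown next because its promoter window is a run of short repeats. The window lies at chr4:90218570-90218869 on the plus strand (RefSeq, GRCm38.p6), and capitals mark GGATTA, the core bound by Obox homeodomain factors, read on the other strand.
Zfp352: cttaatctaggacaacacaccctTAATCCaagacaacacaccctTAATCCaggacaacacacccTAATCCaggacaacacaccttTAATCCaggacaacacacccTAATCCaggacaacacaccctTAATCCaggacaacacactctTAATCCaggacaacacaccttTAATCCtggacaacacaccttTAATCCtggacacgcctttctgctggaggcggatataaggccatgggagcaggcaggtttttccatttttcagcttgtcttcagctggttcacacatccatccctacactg

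The core had 9 matches in this window, the most of any window searched, and 7.16% of the 27025 genes had at least 1. Zfp352 (ENSMUSG00000070902, chromosome 4) measured 0.63, 0.66 and 0.61 in Uba3 cKO libraries, against 0.62, 0.61 and 0.61 in control libraries. It lay near the floor of the table, at the 9.19th percentile of levels, and was not tested because it was under the filter. Duxf3, a Dux copy, was as low, at 0.39, 0.39 and 0.39 in Uba3 cKO libraries and 0.39, 0.39 and 0.44 in control libraries, and it did not pass the filter.

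B020004J07Rik, named Pramel17 in RefSeq, belongs to the PRAME family of leucine-rich repeat proteins, which is much enlarged in the mouse. Sp110 is a nuclear body protein of the Sp100 family known from immune cells. Their promoter windows are set side by side because they share 61 bases without a mismatch, marked in capitals. The Sp110 window lies at chr1:85603842-85604141 and the Pramel17 window at chr4:101843973-101844272, both on the minus strand (RefSeq, GRCm38.p6). Sp110 has a further RefSeq window, not shown, which lacks the run.
Sp110: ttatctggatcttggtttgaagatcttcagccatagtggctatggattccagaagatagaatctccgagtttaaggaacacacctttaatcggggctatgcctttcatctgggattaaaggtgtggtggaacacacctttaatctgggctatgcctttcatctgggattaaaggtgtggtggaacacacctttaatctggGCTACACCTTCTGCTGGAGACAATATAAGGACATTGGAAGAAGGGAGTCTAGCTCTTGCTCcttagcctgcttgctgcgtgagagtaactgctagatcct
Pramel17: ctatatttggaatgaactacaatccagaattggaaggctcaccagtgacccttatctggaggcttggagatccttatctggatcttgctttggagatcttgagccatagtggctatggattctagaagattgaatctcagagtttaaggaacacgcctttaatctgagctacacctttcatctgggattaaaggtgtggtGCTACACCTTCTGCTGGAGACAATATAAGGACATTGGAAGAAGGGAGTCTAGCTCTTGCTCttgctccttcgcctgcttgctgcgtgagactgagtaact

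GGATTA had 2 matches in the Sp110 window and 1 in the Pramel17 window. The shared run began 50 bases before the start in both genes and was found after the windows were seen. It was in the windows of 12 of 27025 genes, of which 5 had a row in the table. Of those 5, Sp110 was lower, B020004J07Rik and Gm12790 were higher, and Arih2 and Sgk1 were not called, beside 8.14% called over all kept genes. Sgk1 was still higher in every Uba3 cKO library than in any control library, which held for 15.1% of kept genes. Sp110 and B020004J07Rik were chosen on this comparison, and a part of the run in these differences was not tested. Gm12790 measured 6.73, 6.58 and 6.72 in Uba3 cKO libraries, against 5.95, 5.93 and 5.85 in control libraries (limma adjusted p = 0.000122). Arih2, a ubiquitin ligase that works with neddylated cullins, measured 9.38, 9.68 and 9.56 in Uba3 cKO libraries, against 9.58, 9.67 and 9.49 in control libraries. Sgk1, a serum-regulated kinase, measured 8.94, 9.01 and 9.15 in Uba3 cKO libraries, against 8.52, 8.92 and 8.66 in control libraries.

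B020004J07Rik (ENSMUSG00000035201, chromosome 4) measured 5.77, 5.67 and 6.15 in Uba3 cKO libraries, against 5.28, 5.29 and 5.31 in control libraries. All Uba3 cKO libraries were higher, by a gap of 0.36, and Uba3 cKO library 3 was the highest. The means were 5.86 ± 0.25 in Uba3 cKO oocytes and 5.30 ± 0.01 in control oocytes (SD, n = 3 each), a difference of 0.57 ± 0.10 (SE), or 1.48-fold. Without Uba3 cKO library 3 the difference was 0.424, the lowest when any 1 library was left out. Of 23 kept PRAME family genes, 1 was called higher, B020004J07Rik itself, and 1 lower, Pramef17, which is near the 8.14% called over all kept genes. Pramef17 measured 6.78, 7.49 and 6.999 in Uba3 cKO libraries, against 7.81, 7.88 and 7.44 in control libraries, and the groups overlapped (limma adjusted p = 0.0314). Its call was lost without Uba3 cKO library 1 or 3 or control library 1 or 2, with an adjusted p of up to 0.131 in limma.

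Sp110 (ENSMUSG00000070034, chromosome 1) measured 12.34, 12.54 and 12.45 in Uba3 cKO libraries, against 12.76, 13.10 and 12.94 in control libraries. All Uba3 cKO libraries were lower, by a gap of 0.23. The means were 12.44 ± 0.10 in Uba3 cKO oocytes and 12.94 ± 0.17 in control oocytes (SD, n = 3 each), a difference of -0.49 ± 0.10 (SE), and -0.580 to -0.410 with each library left out in turn. The blood and immune marker sums given above overlapped only through Uba3 cKO library 2, at 9.127, against 9.124 in control library 2. Of the 6 kept markers, 2 were called lower and 0 higher. The theca, stroma and luteal sums did not overlap, and the Uba3 cKO sums were the smaller. All 8 of those markers had a negative difference (median -0.565). The oocyte marker sums did not overlap either, and there too the Uba3 cKO sums were the smaller. Of the 11 oocyte markers, 9 had a negative difference (median -0.184). The granulosa and cumulus sums and the endothelial sums overlapped. The part of any of these cell types in the Sp110 difference was not tested. The Sp100 family genes beside it were not called. Sp140 measured 5.92, 5.92 and 6.07 in Uba3 cKO libraries, against 6.04, 5.91 and 6.003 in control libraries, and Sp100 measured 4.26, 4.31 and 4.33 in Uba3 cKO libraries, against 4.32, 4.20 and 4.46 in control libraries. In Sp110, 60.4% of 50-base windows and 37.2% of 100-base windows also occurred in transcripts of other genes, so its level is uncertain. The share of 50-base windows was 35.9% in Dppa4, 29.1% in Dppa2 and 13.4% in B020004J07Rik, whose levels can hold reads of other genes too.

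**Figure D2:**
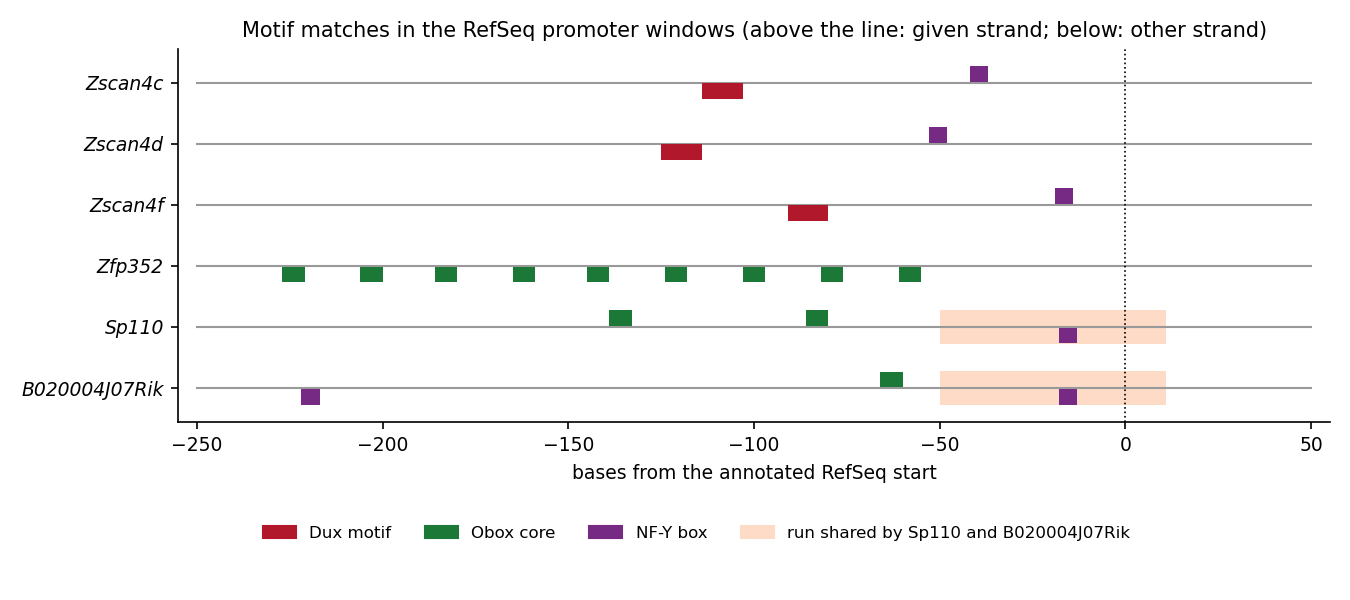
Motif matches by distance from the start in bases across the RefSeq promoter windows of 6 of the 8 genes. The Zscan4 windows share 1 Dux motif match and 1 CCAAT each, and the Zfp352 window holds 9 GGATTA matches.

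The 8 genes ran from the 9.19th percentile of levels (Zfp352) to the 97.5th (Sp110). Per kilobase of summed exons on the linear scale, Dppa2 stood at 1523 ± 173 in Uba3 cKO oocytes and 1324 ± 187 in control oocytes (SD, n = 3 each), and Sp110 at 823 ± 56.5 in Uba3 cKO oocytes and 1162 ± 136 in control oocytes. The ranges of Dppa2 and Sp110 overlapped in control oocytes and not in Uba3 cKO oocytes, and with the length of the longest coding transcript Sp110 stood above Dppa2 in both groups, at 2904 ± 200 in Uba3 cKO oocytes and 4101 ± 480 in control oocytes. Dppa4 came next, at 468 ± 30.7 in Uba3 cKO oocytes and 294 ± 35.5 in control oocytes per kilobase of summed exons. Zscan4d followed at 68.8 ± 2.05 in Uba3 cKO oocytes and 61.5 ± 2.91 in control oocytes on that scale. B020004J07Rik, at 29.8 ± 5.43 in Uba3 cKO oocytes and 19.9 ± 0.186 in control oocytes, and Zscan4c, at 21.6 ± 1.93 in Uba3 cKO oocytes and 19.4 ± 1.33 in control oocytes, overlapped in control oocytes and not in Uba3 cKO oocytes. Zscan4f and Zfp352 were lowest in both groups.

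**Figure D3:**
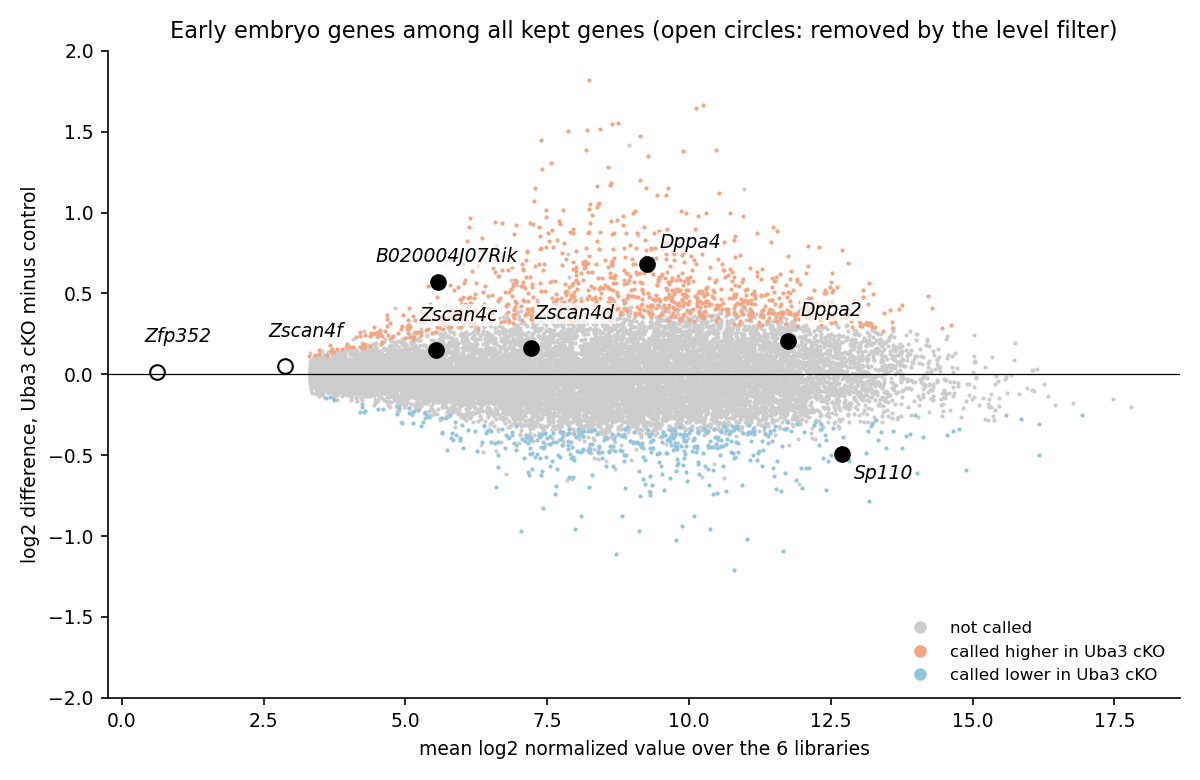
Difference between Uba3 cKO and control (log2) against mean level (log2), with the 8 genes named among all kept genes and the 2 under the level filter as open circles. Dppa4 and B020004J07Rik lie at differences of 0.68 and 0.57, Sp110 at -0.49, and Zfp352 at the low end of the level axis.

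Over the wider list of 2-cell stage genes, 44 were measured and 31 kept, of which 5 were called higher, 2 lower and 24 not called, where 5.64% of all kept genes were higher and 2.5% lower. Their median difference was 0.093, beside -0.006 over all kept genes. Without the 8 genes, 25 were kept, with 3 higher, 1 lower and a median of 0.075. The list was written with earlier results of these data known, and it was not tested as a set. The count of 7 called was 4 without Uba3 cKO library 1 or control library 3, and 3 without Uba3 cKO library 3 or control library 2.

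The 3 genes of this list called higher beside the 8 were at differences of 0.323 (AF067063), 0.179 (Rfpl4b) and 0.154 (B020031M17Rik). AF067063, a transcript of the 2-cell stage, measured 5.47, 5.29 and 5.72 in Uba3 cKO libraries, against 5.19, 5.10 and 5.24 in control libraries (limma adjusted p = 0.0485). Rfpl4b measured 3.68, 3.72 and 3.87 in Uba3 cKO libraries, against 3.57, 3.58 and 3.57 in control libraries (limma adjusted p = 0.0299). B020031M17Rik measured 3.92, 3.82 and 3.88 in Uba3 cKO libraries, against 3.74, 3.72 and 3.70 in control libraries (limma adjusted p = 0.0313). The groups did not overlap for any of these 3. The lower gene of the list beside Sp110 was Pramef17, given above, at a larger difference of -0.621. With no intensity trend, the limma adjusted p was 0.118 for AF067063, 0.172 for Rfpl4b and 0.181 for B020031M17Rik, so these calls were lost. Leaving out single libraries also ended each of these calls. It was lost for AF067063 without any 1 library but Uba3 cKO library 2 (limma adjusted p up to 0.178), for B020031M17Rik without Uba3 cKO library 1 or 3 or control library 2 or 3 (up to 0.134), and for Rfpl4b without Uba3 cKO library 3 or control library 2 or 3 (up to 0.0987).

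**Figure D4:**
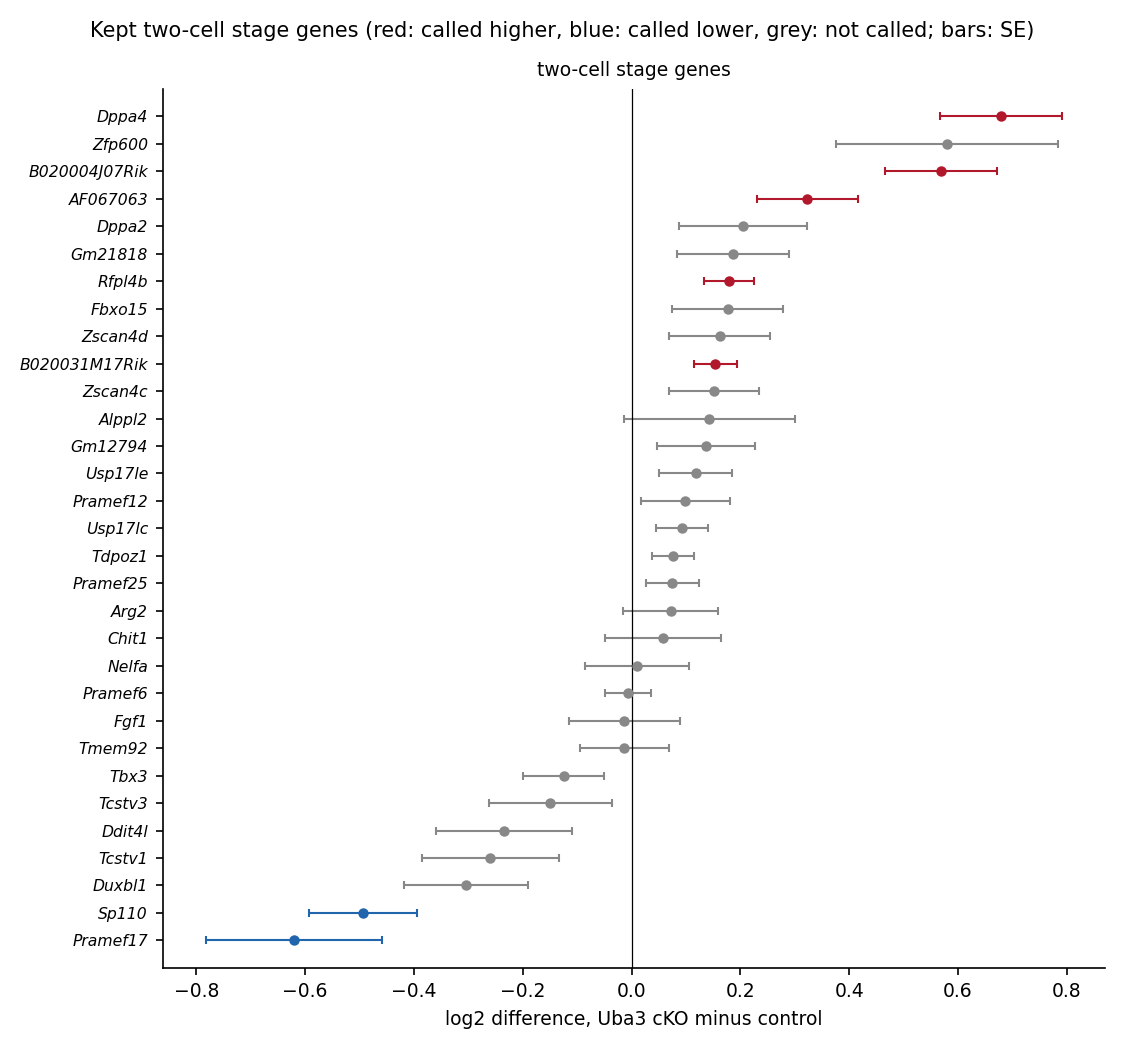
Difference (log2, Uba3 cKO minus control, bars SE) of the 31 kept 2-cell stage genes, coloured by call. Most lie near 0, with Dppa4 at the top at 0.68 and Pramef17 at the bottom at -0.62.

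Of 29 kept activators of the 2-cell programme, 4 were called higher, none lower and 25 not called by limma, with 2 lower at an unadjusted p under 0.05 and a median difference of 0.107. Over all kept genes 5.64% were higher and 2.5% lower. Dppa4 is 1 of the 4, and without Dppa2 and Dppa4 the median was 0.075 over 27 genes. Obox7, a homeodomain factor of the oocyte and early embryo, measured 12.70, 12.66 and 12.71 in Uba3 cKO libraries, against 11.86, 11.96 and 11.90 in control libraries (difference 0.78 ± 0.08, SE; limma adjusted p = 7.95e-05). Nfyc, a subunit of NF-Y, measured 10.85, 10.63 and 10.77 in Uba3 cKO libraries, against 10.24, 9.99 and 10.32 in control libraries (difference 0.57 ± 0.11, SE; limma adjusted p = 0.00605). Both were higher in every Uba3 cKO library than in any control library, and both calls held with each library left out. Tfap2c, an AP-2 factor, measured 10.14, 10.16 and 10.20 in Uba3 cKO libraries, against 9.93, 9.60 and 9.79 in control libraries (limma adjusted p = 0.0328), a call lost without any 1 library but control library 1 (limma adjusted p up to 0.113).

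Of 39 kept repressors of the 2-cell programme, 3 were called higher, 2 lower and 34 not called, with a median difference of -0.001, beside 5.64% higher and 2.5% lower over all kept genes. Atrx, a chromatin remodeller that works with Daxx at heterochromatin, was the one whose call held with every library left out, at 13.72, 13.85 and 13.55 in Uba3 cKO libraries and 14.41, 14.27 and 14.27 in control libraries (difference -0.61 ± 0.09, SE; limma adjusted p = 0.000856). Its partner Daxx, a histone chaperone, was called the other way, at 8.61, 8.65 and 8.87 in Uba3 cKO libraries and 8.34, 8.32 and 8.34 in control libraries (limma adjusted p = 0.0416). Zmym2, a zinc finger corepressor, measured 11.77, 11.78 and 11.95 in Uba3 cKO libraries, against 11.49, 11.41 and 11.30 in control libraries (limma adjusted p = 0.0123). Rnf2, a Polycomb ubiquitin ligase, measured 12.44, 12.30 and 12.53 in Uba3 cKO libraries, against 12.05, 11.996 and 12.05 in control libraries (limma adjusted p = 0.016). Ehmt1, a histone H3 lysine methyltransferase, was lower, at 10.68, 10.73 and 10.67 in Uba3 cKO libraries and 11.02, 11.05 and 10.96 in control libraries (limma adjusted p = 0.0422). The calls of Daxx and Ehmt1 were lost without any 1 of the libraries (limma adjusted p up to 0.155 and 0.142), that of Rnf2 without Uba3 cKO library 1 or 3 or control library 3 (up to 0.0882), and that of Zmym2 without Uba3 cKO library 3 or control library 3 (up to 0.0783).

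**Figure D5:**
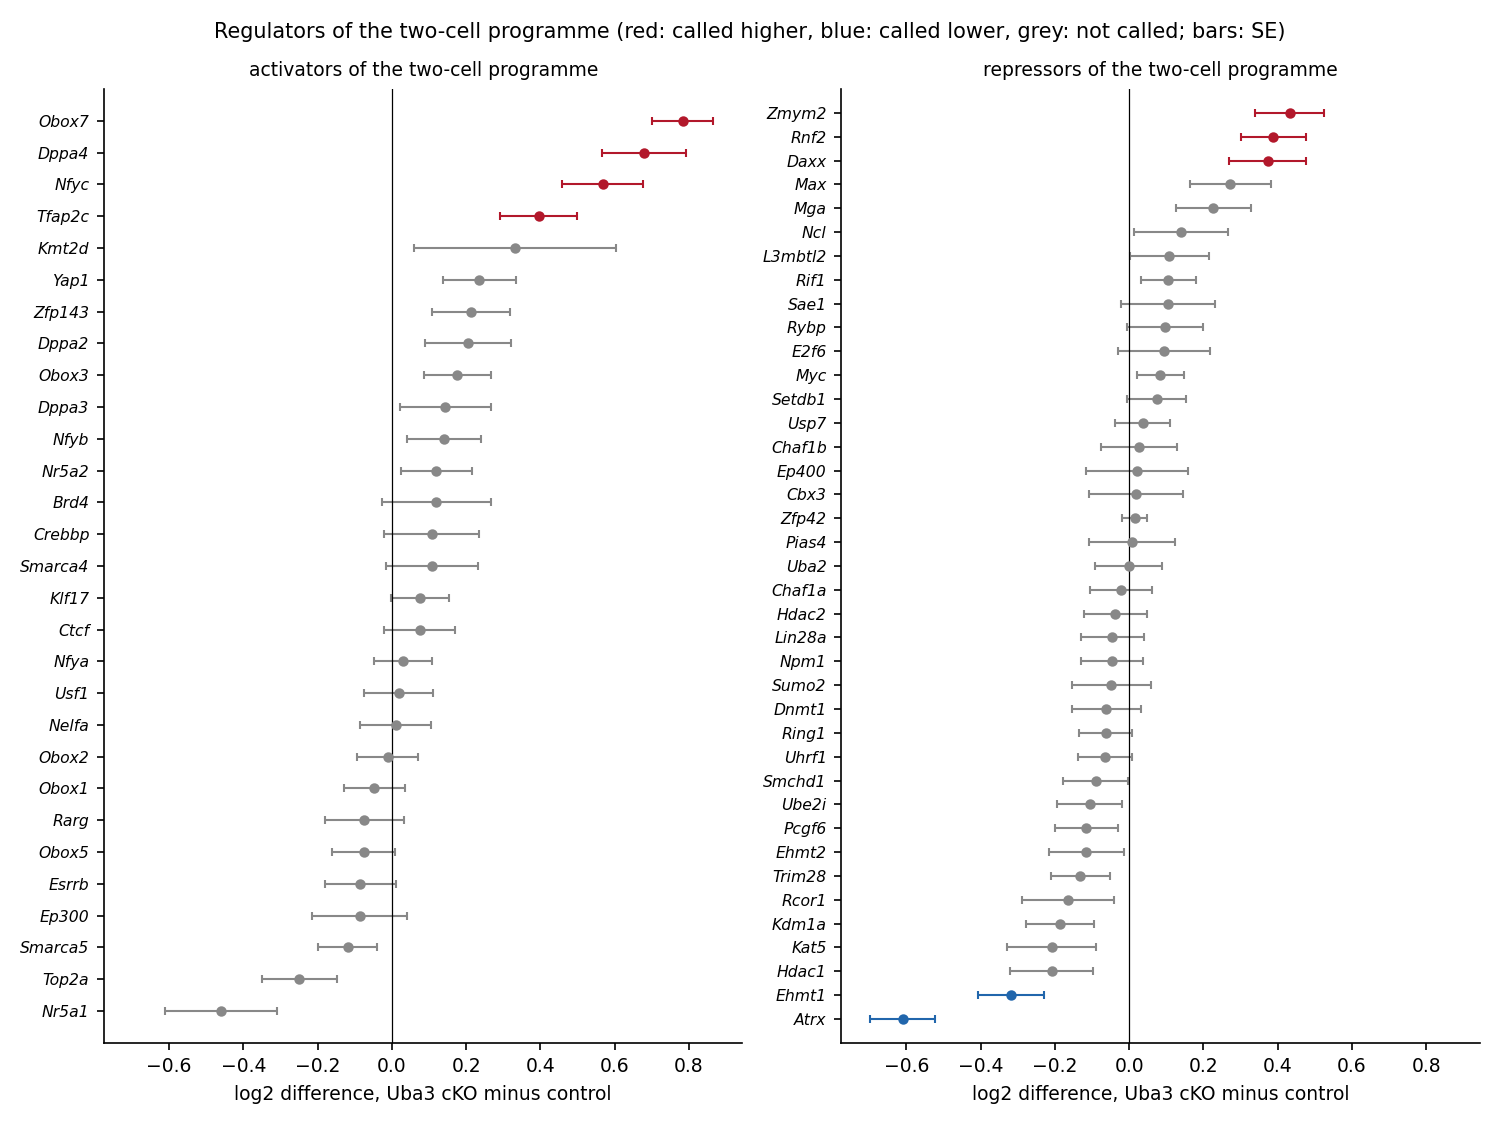
Difference (log2, Uba3 cKO minus control, bars SE) of the kept activators and repressors of the 2-cell programme, coloured by call. Among activators Obox7 stands at 0.78 and Dppa4 at 0.68, and among repressors Atrx stands at -0.61.

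Of 25 kept pluripotency and lineage genes, 5 were called higher, none lower and 20 not called by limma, with none lower at an unadjusted p under 0.05 and a median difference of 0.075. All kept genes had 5.64% higher and 2.5% lower. The 8 genes are not in this list, and Tfap2c, given above, is 1 of the 5. Tet1, a 5-methylcytosine dioxygenase, measured 9.66, 9.49 and 9.40 in Uba3 cKO libraries, against 8.83, 8.33 and 8.39 in control libraries (difference 0.999 ± 0.13, SE; limma adjusted p = 0.000478). Its relative Tet2 measured 9.18, 9.19 and 9.14 in Uba3 cKO libraries, against 8.70, 8.67 and 8.68 in control libraries (difference 0.49 ± 0.09, SE; limma adjusted p = 0.00605). Sall4, a zinc finger factor of oocytes and stem cells, measured 13.43, 13.16 and 13.39 in Uba3 cKO libraries, against 12.82, 12.71 and 12.89 in control libraries (difference 0.52 ± 0.09, SE; limma adjusted p = 0.0037). These 3 calls held with each library left out. Prdm1, a repressor of germ cell founders, measured 9.53, 9.35 and 9.66 in Uba3 cKO libraries, against 9.28, 9.02 and 8.99 in control libraries (limma adjusted p = 0.0417), and its call was lost without Uba3 cKO library 1 or 3 or control library 2 or 3 (limma adjusted p up to 0.173).

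The genes most like each of the 6 kept genes were named by Pearson's r over the 6 libraries among 13970 kept genes with a symbol. Pseudogenes, predicted genes with Gm symbols, RIKEN clones and genes with accession-type symbols were left out of the 13970. With 6 libraries, r is given as a description that mixes the group difference with the spread between pools. Dppa4 was most like Prr23a2 (r = 0.9991), Fam155a (r = 0.9955) and Olfr693 (r = 0.9934). Dppa2 was most like Htr5a (r = 0.9959) and Anapc15 (r = 0.9950). Zscan4d was most like Pank3 (r = 0.9959), Nufip2 (r = 0.9919) and Cd164 (r = 0.9915), and Zscan4c like Fndc3a (r = 0.9837), Lgals12 (r = 0.9797) and Prpf6 (r = 0.9751). The 3 genes nearest to Zscan4c differed from the 3 nearest to Zscan4d, and with 13970 genes searched nothing is read from this. Sp110 was most like Apex1 (r = 0.9964), A4galt (r = 0.9947) and Lmnb1 (r = 0.9941), and B020004J07Rik like Arhgap18 (r = 0.9995), Ttc39c (r = 0.9957) and Msl2 (r = 0.9951).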

How the data were processed

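RNA was measured in 3 Uba3 cKO and 3 control libraries, grouped and numbered by sample title. PicoPure extraction and TruSeq RNA libraries were used, per the labels' protocols. Per the submitters' processing notes, the tools were DESeq2, featureCounts, STAR and fastp and the build was GRCm39, with no versions. The deposited table holds log2 values normalized by the authors for 28738 gene IDs. The values, between 0.0363 and 18.01, gave the unit. The transform is not named, and differences of low genes may be understated. The depth is unknown, since no read counts entered. All 6 columns of values were used.

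Symbols came from GENCODE M21 and were found for 27660 IDs (96.2%). Genes were kept where 3 or more libraries had a linear value of at least 10 (17450 kept, 11288 dropped). The groups were compared by limma (version 3.58.1, R 4.3.3), using an intensity trend. Genes were called at a two-sided Benjamini-Hochberg adjusted p under 0.05 over all kept genes. The fit was tested on simulated data. The 8 genes and the gene lists were chosen with earlier results of these data known.

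Genes named were the 8, Uba3, every called gene of the lists other than the cell type markers (or, where none was called, the pair with the highest level) and, for each of the 8 that was kept, the 3 genes most like it, of which 1 is not reported here. Outside this rule, Morc1, Nectin3, Duxf3, Zscan4-ps1, Sp140, Sp100, Gm12790, Arih2, Sgk1 and the PRAME genes of the closing section were named after their values were seen. Transcripts were aligned with Biopython 1.88. Promoter windows came from RefSeq (GRCm38.p6), and 6 of the 8 genes had one. Since the submitters named another build, no other coordinates are given. Alternatives were pseudocounts of 1 and 5, no filter and a minimum of 50, median centring, quantile normalization, no intensity trend, the replicate number as a block, each library left out, local alignment, and the bases before the start alone.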

Additional observations from a re-analysis of the deposited data

How the results depend on the processing

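Of the 8 genes, 3 lay past the threshold (Dppa4 and B020004J07Rik higher, Sp110 lower) in the reported fit, under each alternative fit run and with each library left out, which describes the same libraries that chose them and is no independent support. Calls over all genes, 1421 in the reported fit, ran from 618 (without control library 3) to 1637 (without control library 1) when 1 library was left out, and were also over 1.5 times fewer without Uba3 cKO library 1 (681), Uba3 cKO library 3 (709) or control library 2 (780). Calls in the list of 2-cell stage genes, 7 in the reported fit, were 4 with the stricter filter, which left fewer genes to test, 3 with no intensity trend, for which the cause was not tested, and 3 to 8 when 1 library was left out. The replicate block gave 1258 calls over all genes, 3 among the 8 and 8 in the list. Libraries with the same replicate number did not deviate together (r = -0.085, -0.198 and -0.054 for numbers 1, 2 and 3). None correlated best with its own number, and the samples share only a number. Deviations did go together for Uba3 cKO library 2 and control library 1 (r = 0.277). The same held for Uba3 cKO library 3 and control library 2 (r = 0.249) and Uba3 cKO library 1 and control library 3 (r = 0.194). All other pairs had a negative r. Deviations from a group mean cancel within the group, so a positive r in any pair favours negative ones in the others. A pairing other than by number was not tested. Local alignment gave 97.0% identity for the Zscan4c and Zscan4f transcripts (78.3% global) and 95.3% for Zscan4d and Zscan4f (76.9% global), since it leaves out unmatched ends. Of the other genes named, 8 lost their call in at least 1 alternative that kept all libraries (adjusted p up to 0.181). No called difference changed sign under these alternatives. With 3 pools a group and no counts, small differences at low levels, such as those of Zscan4f and Zfp352, could not be resolved.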

Other observations

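The PRAME family genes C87414, Gm3259 and D5Ertd577e, chosen after their values were seen, were low in the same pair of libraries, Uba3 cKO library 3 and control library 2. C87414 measured 11.60, 11.79 and 9.01 in Uba3 cKO libraries, against 11.80, 9.41 and 11.03 in control libraries. Gm3259 measured 8.92, 9.17 and 6.47 in Uba3 cKO libraries, against 8.70, 6.53 and 8.36 in control libraries. D5Ertd577e measured 9.43, 9.44 and 6.56 in Uba3 cKO libraries, against 9.72, 6.65 and 8.89 in control libraries. B020004J07Rik was highest in Uba3 cKO library 3, at 6.15, but in control library 2 it measured 5.290, between 5.285 and 5.310 in the other control libraries. A link between it and these genes was not tested.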
